A study of Mus musculus with 12 samples.

Results

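Ion channels and ligand-gated receptors were taken as the protein-coding RefSeq genes of GRCm38 whose symbols name potassium (Kcn), voltage-gated calcium (Cacn), voltage-gated sodium (Scn), pacemaker (Hcn), chloride (Clcn), transient receptor potential (Trp), calcium release (Ryr, Itpr), ionotropic glutamate (Gri), GABA-A (Gabr) or nicotinic (Chrn) genes. Kcnq1 was left out. This gave 230 genes of 21887. A gene was counted as carrying a called site when the authors' deposited table listed a CpG in its span or within 5 kb on either side. Of the 2798 CpGs in that table, 44 lay at 33 of the 230 genes. The genes were chosen by symbol and no methylation value entered the rule, but it was set with earlier results of these data known.

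The table compared 6 libraries from offspring of mothers given di(2-ethylhexyl) phthalate (DEHP), a plasticiser, with 6 libraries from offspring of mothers given corn oil. The mothers (F0, C57BL/6) received DEHP at 37 µg per kg per day, or vehicle, for 10 days and were then mated with untreated males. The libraries were made by reduced representation bisulfite sequencing (RRBS), which reads methylation mostly in CpG-rich fragments, from splenic CD11c dendritic cells of the female F1 offspring, and the labels give OVA as the immunisation of both groups. The extraction note also names spleen tissue, while the sources used here state neither the offspring's age nor the number of mothers. The table holds no level, read count or depth for a single library, so a difference below is that between the groups as wholes, with no spread between libraries and an unknown depth. Cell identity could not be checked against marker genes, because the table holds no expression. Positive differences are taken to mean more methylation after maternal DEHP, an order of subtraction that the table does not state. Every listed site differed by at least 25 percentage points, with q-values of up to 3.62e-05.

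Ion channels are membrane proteins that open a pore for potassium, sodium, calcium or chloride when the voltage changes, a ligand binds or calcium rises inside the cell. Pore-forming subunits carry the current, and accessory subunits set their gating and their number at the surface. In neurons, heart and muscle they carry electrical signals. In dendritic cells and other leukocytes, potassium channels hold the membrane potential that drives calcium entry, and calcium signals accompany maturation, migration and antigen presentation. Methylation of CpGs at a promoter often goes with a silent gene, whereas methylation within a gene body is common in transcribed genes.

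Called sites came close to a transcription start in only a few of these genes, and their sequences are shown for that reason. RefSeq (GRCm38.p6) lists a start for 171 of the 230 genes and for 23 of the 33 that carried a site. At 4 of those 23, Kcne4, Chrna7, Ryr2 and Kcnk18, a called CpG lay within 1 kb of a start. The 250 bases before each start follow, 5′ to 3′ on the gene's strand, with every CpG in capitals. They lie at chr1:78816661-78816910 (plus strand) for Kcne4, chr7:63212527-63212776 (minus strand) for Chrna7, chr13:12106946-12107195 (minus strand) for Ryr2 and chr19:59219398-59219647 (plus strand) for Kcnk18.
Kcne4: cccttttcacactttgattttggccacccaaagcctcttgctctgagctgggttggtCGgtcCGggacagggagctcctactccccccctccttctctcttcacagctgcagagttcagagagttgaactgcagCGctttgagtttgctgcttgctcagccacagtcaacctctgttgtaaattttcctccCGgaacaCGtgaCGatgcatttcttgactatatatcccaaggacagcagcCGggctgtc
Chrna7: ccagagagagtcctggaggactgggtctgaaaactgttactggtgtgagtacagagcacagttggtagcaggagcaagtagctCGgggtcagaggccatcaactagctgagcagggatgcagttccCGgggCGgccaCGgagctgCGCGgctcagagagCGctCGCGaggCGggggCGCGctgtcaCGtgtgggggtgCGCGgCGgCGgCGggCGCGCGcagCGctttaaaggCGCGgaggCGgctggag
Ryr2: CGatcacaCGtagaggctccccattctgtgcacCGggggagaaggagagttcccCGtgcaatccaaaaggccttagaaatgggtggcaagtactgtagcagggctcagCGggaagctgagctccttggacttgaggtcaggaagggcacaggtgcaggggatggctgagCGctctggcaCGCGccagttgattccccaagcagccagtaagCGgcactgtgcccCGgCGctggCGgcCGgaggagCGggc
Kcnk18: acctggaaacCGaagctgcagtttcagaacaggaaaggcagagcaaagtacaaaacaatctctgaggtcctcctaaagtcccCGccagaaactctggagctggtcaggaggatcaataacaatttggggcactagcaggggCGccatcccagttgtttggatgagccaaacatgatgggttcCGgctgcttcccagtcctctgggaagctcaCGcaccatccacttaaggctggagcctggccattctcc

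These stretches differed in CpG content. Chrna7 held 25 CpGs and Ryr2 14, while Kcne4 held 7 and Kcnk18 held 5, with a GC content of 67.2%, 63.2%, 53.2% and 53.6%. Only at Kcne4 and Chrna7 did the called CpG itself fall in the printed stretch. The called CpG of Kcne4 lay 116 bases before the start and that of Chrna7 123 bases before it, here with the called CpG alone in capitals and the bases around it.
Kcne4: tgaactgcagCGctttgagttt
Chrna7: atgcagttccCGgggcggccac
Both were hypomethylated in the authors' deposited table, by -32.3 percentage points at Kcne4 (chromosome 1, position 78816795) and by -27.4 points at Chrna7 (chromosome 7, position 63212649). Kcne4 encodes a small accessory subunit that inhibits some voltage-gated potassium channels. Chrna7 encodes the alpha7 nicotinic acetylcholine receptor, through which acetylcholine dampens cytokine release by macrophages. At Ryr2, the ryanodine receptor of heart muscle, the called CpG lay 493 bases after the start and was hypermethylated by 26.0 points in the authors' deposited table. At Kcnk18, the potassium channel TRESK of sensory neurons, a CpG 450 bases after the start was hypermethylated by 38.4 points, and one 597 bases after it was hypomethylated by -26.9 points. These neighbours, 147 bp apart, thus went in opposite directions.

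Among the 230 genes, 33 (14.3%) carried a called site, against 6.52% of all protein-coding genes. Channel genes are long, with a median span of 45.8 kb against 17.2 kb over all protein-coding genes, and a long gene has more room for a called site. The 33 genes with a site had a median span of 114 kb and the 197 without one a median of 41.7 kb. From the share of all protein-coding genes with a site in the same decile of span length, 22.8 of the 230 would be expected to carry one. The observed count was 1.44 times that. Counted per length instead, the windows of the 230 genes held 1.31 called sites per Mb over 33.6 Mb, against 1.39 per Mb in the windows of all protein-coding genes. With an expectation from window length alone, added after the data were seen, the ratio was 0.91, and the same ratio over all protein-coding genes was 0.94. So, with 5 kb on either side, the 230 genes stood above other genes in one way of allowing for length and level with them in the other.

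The channel genes exceeded all protein-coding genes of the same length stratum in the short strata and in the longest one. Of 26 channel genes with spans under 10 kb, 3 carried a site (11.5%, against 3.36% of all protein-coding genes in that stratum). Lengths were not alike there, with a median span of 5.88 kb for the channel genes and 3.71 kb for all genes. Of 62 with spans of 10 to 30 kb, 8 did (12.9% against 5.67%). Between 30 and 100 kb the shares were 7.69% (5 of 65) and 7.76%, and between 100 and 300 kb they were 12.8% (5 of 39) and 13.8%. At 300 kb or more, 12 of 38 channel genes carried a site (31.6% against 25.5%), with a median span of 439 kb for the channel genes and 451 kb for all genes of that stratum. The short strata of all genes include many predicted genes and olfactory, vomeronasal and taste receptor genes. Without those, 4.40% of genes under 10 kb and 5.94% of genes of 10 to 30 kb carried a site.

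**Figure D1:**
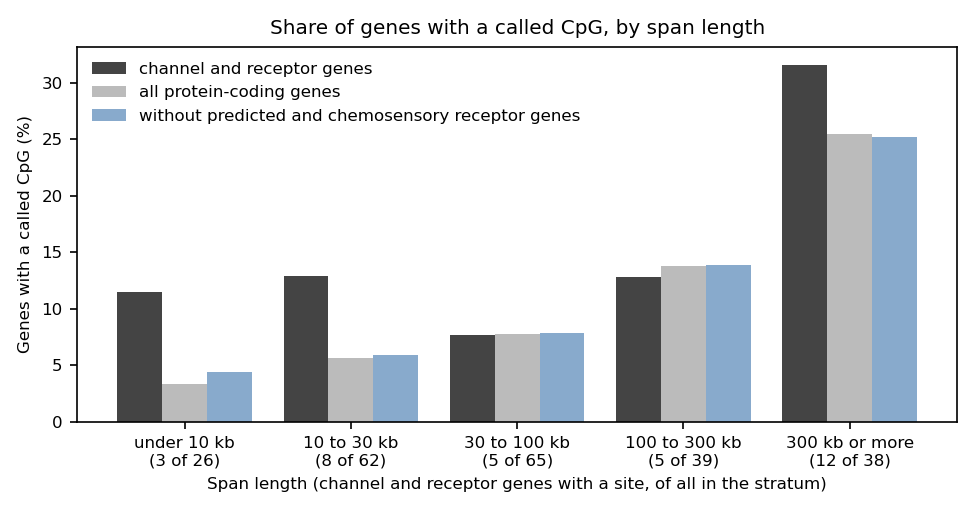
Share of genes with a called CpG (vertical axis, percent) in 5 strata of span length (horizontal axis), for the 230 channel and receptor genes, all protein-coding genes, and protein-coding genes without predicted and chemosensory receptor genes. The channel bars are the tallest under 30 kb and at 300 kb or more, and level with the others between 30 and 300 kb.

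Losses outnumbered gains at these genes, with the sign read as above. Of the 44 sites, 15 were hypermethylated and 29 hypomethylated in the authors' deposited table, so that 34.1% gained, against 48.4% of all 2798 sites. The 95% interval of the first share (exact binomial, each site taken as independent) ran from 20.5% to 49.9% and so holds the second. With the opposite order of subtraction, 65.9% of these sites and 51.6% of all sites would be gains. Merging sites within 1 kb left 38 loci, 14 gaining and 24 losing. By gene, 24 of 230 (10.4%, against 3.77% of all protein-coding genes) carried a loss and 13 (5.65%, against 3.49%) a gain, with 4 genes counted in both. These shares by gene make no allowance for span length, and the channel genes are longer. No test of the direction over libraries was possible. The sizes were ordinary for the table, with a median absolute difference of 28.5 points against 28.7 over all sites. Of the 44 sites, 16 (36.4%) differed by 30 points or more and 1, at Kcng4, by 40 or more. In the windows of all protein-coding genes, 682 (41.4%) and 97 of 1646 sites did. The deposited q-value was 0 at 31 of the 44 sites and at most 2.24e-08 at the others. It was 0 at 2073 of all 2798 sites.

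**Figure D2:**
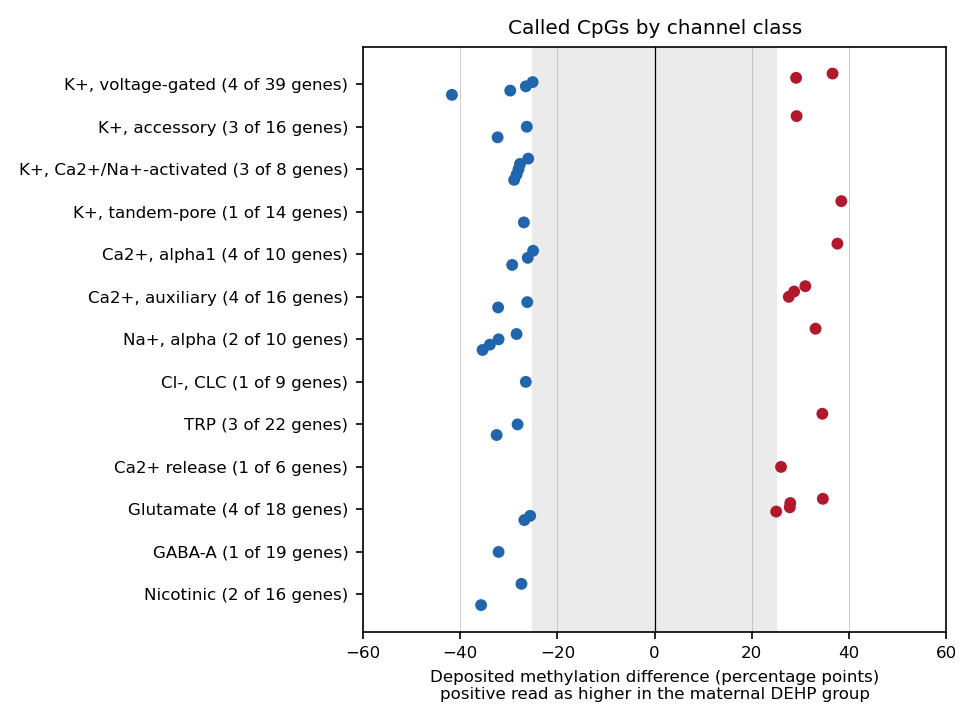
Deposited methylation difference in percentage points (horizontal axis) for each of the 44 called CpGs, 1 line per channel class, with points spread vertically for legibility. Red points are hypermethylated and blue points hypomethylated sites, and the grey band marks differences under 25 points, which the table does not list. Blue points outnumber red ones by 29 to 15, and most lie close to the band.

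Potassium channels made up 92 of the 230 genes, and 11 of them carried 16 sites, 4 hypermethylated and 12 hypomethylated. The potassium channels opened by intracellular calcium or sodium stood out by count, with 3 of 8 genes against 0.958 expected from span length and 2.61 sites per Mb. The 3 were all of the small and intermediate conductance family, which calcium opens through calmodulin, and all of their 5 sites were hypomethylated in the authors' deposited table. Kcnn4, the intermediate conductance channel that lymphocytes and macrophages use to sustain calcium entry, lost -27.7 points at a site 2.15 kb after its start (chromosome 7, position 24372412). Kcnn2, a small conductance channel of neurons and heart, lost -28.9 points inside its 417 kb span on chromosome 18. At Kcnn1, its neuronal relative, 3 neighbouring sites, 57 and 28 bp apart, lost -26.0, -28.4 and -28.0 points. Those 3 lay outside the Kcnn1 span by 3.02 to 3.11 kb and inside the span of Ccdc124, so they belong to Kcnn1 only through the 5 kb window. They are 3 of the 5 sites behind the 2.61 per Mb, so that density rests largely on this cluster.

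Voltage-gated potassium channel alpha subunits carried sites at 4 of 39 genes, against 3.51 expected. Kcng4, a silent subunit that modifies other potassium channels, held the largest loss of the 230 genes, -41.7 points at position 119632994 on chromosome 8, with a second loss of -29.7 points 43 bp away. Kcnd3, which carries the fast transient outward current of heart and neurons, held 2 gains in its 222 kb span, of 36.6 and 29.1 points, 16.9 kb apart. Kcna7, a channel of muscle, lost -25.1 points inside its span in the authors' deposited table, at a site that also lies within 5 kb of the neurotrophin gene Ntf5. Kcnc1, a channel of fast-spiking neurons, lost -26.5 points at a site 2.88 kb beyond its span. Kcna3, the channel of activated T cells, carried no site.

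Accessory potassium channel subunits carried sites at 3 of 16 genes, against 1.36 expected. Besides Kcne4, these were Kcne1, the partner of a cardiac potassium channel, with a loss of -26.3 points 1.56 kb outside its span, and Kcnab1, a cytoplasmic beta subunit, with a gain of 29.2 points inside its 429 kb span. Kcnk18 was the one carrier among 14 tandem-pore channels, which set the resting potential (1.06 expected). The 15 inward rectifiers, which hold cells near the potassium equilibrium, carried none (1.09 expected).

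Voltage-gated calcium channels had a higher share of genes with a site than the potassium, sodium or chloride channel genes (8 of 26, against 11 of 92, 2 of 14 and 1 of 9). That comparison makes no allowance for span length. The 8 genes carried 9 sites, with 3.18 genes expected from span length. The observed count was 2.51 times that, against 1.38, 1.19 and 1.48 times for the potassium, sodium and chloride channel genes. By sites per Mb, the calcium channel genes (1.73) lay below the sodium (3.58) and chloride (2.09) channel genes and above the potassium channel genes (1.42). Most of the 5 sodium channel sites lay in 1 gene, and the chloride value rests on 1 site. The pore-forming alpha1 subunits carried sites at 4 of 10 genes (1.38 expected) and the alpha2delta, beta and gamma subunits at 4 of 16 (1.80 expected). The 4 alpha1 genes belong to different current types. Cacna1a, the P/Q-type channel of synapses, lost -26.1 points in its 302 kb span. Cacna1d, an L-type channel, lost -29.3 points (chromosome 14, position 30130289), and Cacna1e, the R-type channel, lost -25.0 points, at the minimum of the authors' deposited table. Cacna1g, a T-type channel that opens at low voltage, gained 37.6 points in its 66.0 kb span on chromosome 11, at position 94415102.

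The auxiliary calcium channel subunits went in both directions. Cacna2d1, which carries the channels to the surface and binds gabapentin, gained 31.0 points, and its relative Cacna2d3 lost -32.2 points near the far end of an 818 kb span in the authors' deposited table. Cacnb2, a cytoplasmic beta subunit, gained 27.6 points. Cacng2, known as stargazin and better known as a partner of AMPA receptors, held a gain of 28.7 points and a loss of -26.2 points, 74.1 kb apart. Apart from Cacna1g and Cacng2, the calcium channel genes with a site had spans of over 300 kb. The class median span was 413 kb with a site and 62.2 kb without.

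Sodium channel alpha subunits carried sites at 2 of 10 genes (1.45 expected), at 3.86 sites per Mb, a density that rests largely on 1 of the 2. Scn8a, a channel of axon initial segments, lost -32.1 points within its span. The 4 sodium channel beta subunits (0.222 expected) and the 4 Hcn pacemaker channels (0.349 expected) carried none. Of 9 chloride channels and transporters of the CLC family, Clcn2 alone carried a site, a loss of -26.5 points (0.675 expected).

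Transient receptor potential channels, cation channels gated by lipids, calcium or temperature, carried sites at 3 of 22 genes (2.25 expected). Trpm4, a calcium-activated channel that limits calcium entry in mast cells, T cells and dendritic cells, lost -32.5 points inside its span (chromosome 7, position 45318067). Trpc2, the pheromone-sensing channel of the vomeronasal organ, was counted for a gain of 34.5 points 1.36 kb beyond its span and inside that of Art5. Of the 6 intracellular release channels, Ryr2 alone carried a site (0.947 expected), and Ryr1, Ryr3 and the 3 inositol trisphosphate receptors carried none.

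Among the ligand-gated receptors, 7 of 53 genes carried a site (5.52 expected), in 3 families. Ionotropic glutamate receptors carried sites at 4 of 18 genes, against 2.52 expected, but at 0.928 sites per Mb, over a median span of 298 kb. The AMPA (Gria) and kainate (Grik) receptor genes, 4 and 5 in number, carried none. Grin1, the obligatory NMDA receptor subunit, gained 27.8 points within a 28.0 kb span, and Grin2b, one of its partners, lost -26.8 points in a 460 kb span. Grid1, a delta receptor of synapses, gained 34.6 points in a 763 kb span.

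GABA-A receptor subunits, the main inhibitory receptors of the brain, carried a site at 1 of 19 genes, against 2.03 expected, and at 0.349 sites per Mb. The gene was the X-linked Gabra3, with a loss of -32.1 points (position 72492139) in the authors' deposited table. Nicotinic receptor subunits carried sites at 2 of 16 genes (0.968 expected), both losses, and their short windows gave 3.98 sites per Mb. Besides Chrna7, the other was Chrna10, a subunit of hair cells, with a loss of -35.7 points at a site that also lies inside the span of Art1. The sites of Trpc2 and Chrna10 were nearest neighbours on chromosome 7, 16.4 kb apart, and went in opposite directions.

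**Figure D3:**
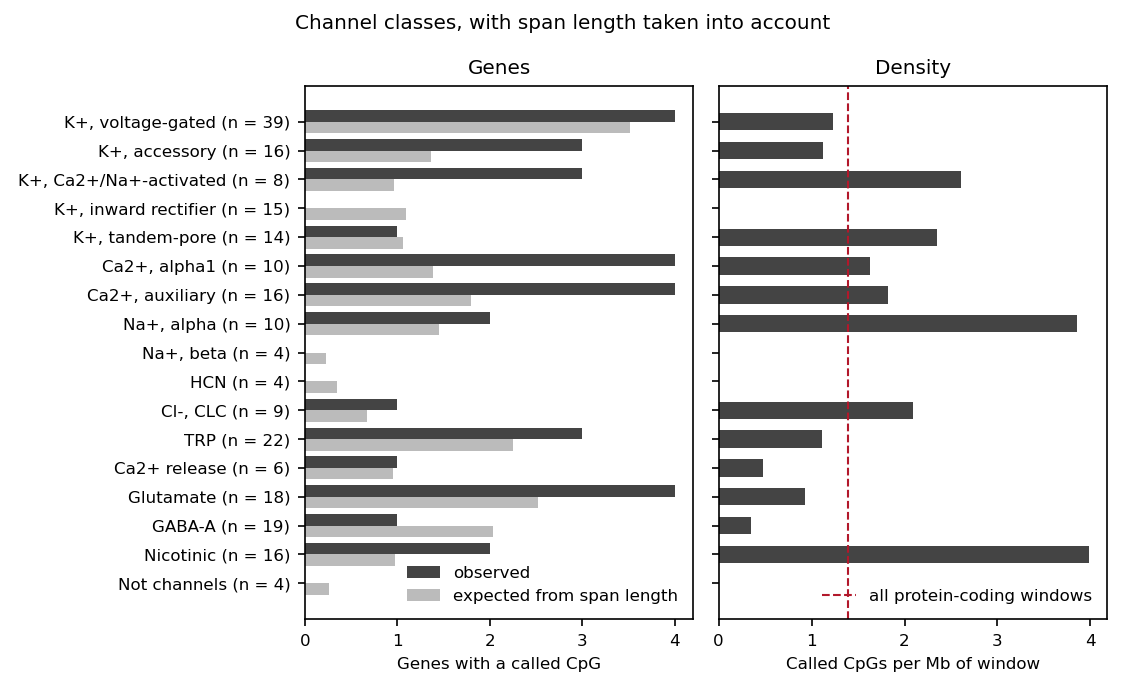
Left, the number of genes with a called CpG in each channel class (dark bars) and the number expected from span length (light bars). Right, called CpGs per Mb of gene windows, with the value over all protein-coding windows (1.39) as a dashed line. Calcium channel subunits, calcium- or sodium-activated potassium channels, sodium channel alpha subunits, the CLC family and nicotinic receptors exceed both references. GABA-A subunits and the classes without a called CpG lie below both.

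Of 17 classes, 11 had more genes with a site than span length gave, and 7 exceeded all protein-coding windows in sites per Mb. Both held for the calcium- or sodium-activated potassium channels, both calcium channel classes, the sodium channel alpha subunits, the CLC family and the nicotinic receptors. With counts of 1 to 4 genes a class, a single gene can move a class. Without the member with the most sites, which by itself lowers each count, 6 classes were above expectation, and of those named, the sodium channel alpha subunits (0.74 times expectation) and the CLC family (0 times) were not. No difference between classes was tested. Pore-forming subunits carried 11 gains and 25 losses at 26 of 190 genes, and accessory subunits 4 of each at 7 of 36. The 4 genes that share the symbols but encode no channel subunit carried none.

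**Figure D4:**
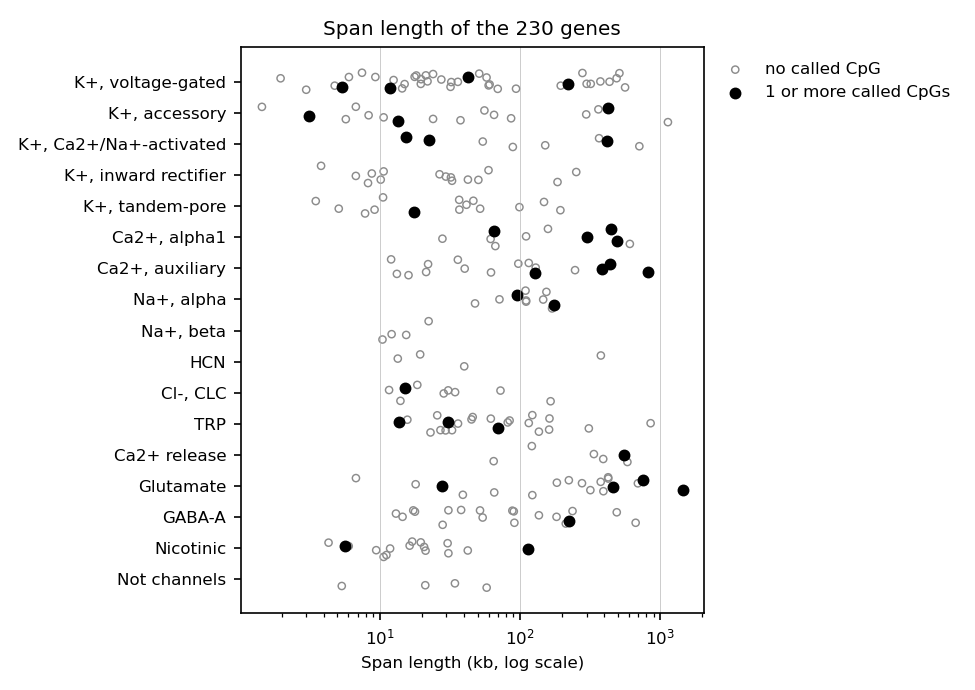
Span length of each of the 230 genes (horizontal axis, kb, log scale) by channel class. Filled points are the 33 genes with a called CpG and open points the 197 without. Filled points occur at 3.12 kb (Kcne4) as well as at 818 kb (Cacna2d3), and several of the longest genes are open.

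Several very long genes carried no site. The 5 longest genes without a called site were Kcnip4 (1140 kb), Trpm3 (858 kb), Kcnma1 (713 kb), Grik2 (696 kb) and Gabrg3 (671 kb). They encode a modulator of transient potassium channels, a heat-sensing cation channel, the large conductance calcium-activated potassium channel, a kainate receptor and a GABA-A subunit. Relative to window length, the densest genes were short, which follows largely from dividing a few sites by a short window. Kcnn1 had 9.22 sites per 100 kb of window, Kcng4 9.16, Kcne4 7.62, Kcnk18 7.21 and Kcna7 6.48. Which CpGs of any of these genes were covered is unknown, so a gene without a called site is not shown to be unchanged.

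Most sites lay inside genes and alone. Of the 44, 36 lay inside the span of one of the 230 genes and 8 in the 5 kb beside one, 4 of the latter within another protein-coding gene. Spans make up most of the windows. Without the 5 kb flanks, the 230 genes held 1.15 called sites per Mb, against 1.38 for all protein-coding genes. With 20 kb on either side they held 1.45 per Mb, against 1.33, so the order of the densities changed with the window. Among genes with a listed start, 22 of 29 sites lay inside the span, against 1157 of 1496 over all protein-coding genes. At 33 of the 44, the nearest other called site was over 10 kb away, a share not given here for all called sites. Of the 230 genes, 26 carried 1 site and 7 carried 2 or more (3.04%, against 1.51% of all protein-coding genes, with no allowance for span length). Over the 23 genes with a listed start, 5 of 29 sites (17.2%) lay within 1 kb of a start, against 19.1% over all protein-coding genes with a listed start, and the median distance was 9.19 kb against 10.0 kb. Inside the span, the median site lay 38.0% of the way from the start, against 48.4% over all such genes. Exons and introns could not be told apart, because the gene table gives spans alone.

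**Figure D5:**
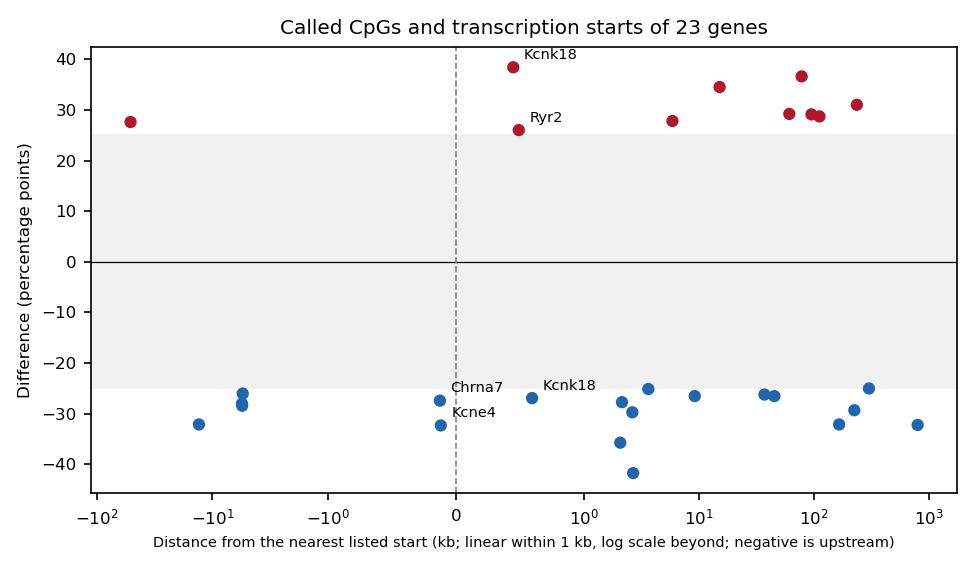
Deposited difference in percentage points (vertical axis) against distance from the nearest listed start in kb (horizontal axis, linear within 1 kb and log beyond, negative upstream) for 29 called CpGs of 23 genes. Red points are gains and blue points losses, and the 5 points within 1 kb of a start carry their gene names. Most points lie far to the right of the dashed line at the start.

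Promoter sequence was compared between genes with and without a called site. In the 300-base windows that RefSeq sequences cover (250 bases before to 50 after a start), the median number of CpGs was 11.5 for the 23 listed genes with a called site and 9 for the 148 without one, against 13 over all protein-coding genes. The sequence CCGG, which reads the same on both strands and which MspI, the enzyme usual in RRBS, cuts, occurred in 63.3%, 59.7% and 62.2% of these promoters. Which enzyme was used is not stated in the labels. Among the classes, CCGG was present in 31.6% of 19 GABA-A promoters and in 80.0% of 10 glutamate receptor promoters. The classes did not line up by called sites. CCGG was present in 70.6% of 17 promoters of the inward rectifiers, which carried no site. Of the calcium channel alpha1 promoters, 5 of 10 had it, with sites at 4 of 10 genes. All 6 promoters of the calcium- or sodium-activated potassium channels had it, with sites at 3 of 8 genes. A relation between CCGG and called sites was not tested. The called CpG of Chrna7 lay in a CCGG, as the printed bases show, and that of Kcne4 did not.

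Other channel genes and partners of channels were counted in the same way, in lists drawn up with earlier results of these data known. Of 28 members of the symbol families with a known role in leukocytes, 5 carried a site (2.86 expected), each with a single loss. Among them were Kcnn4, Trpm4, Chrna7 and Cacna1d. By density, this list was level with all protein-coding windows, at 1.4 sites per Mb against 1.39. Of 85 channels and ionotropic receptors outside the symbol families, 12 carried a site (7.54 expected), at 1.94 sites per Mb. There gains prevailed, 11 against 5 losses. Those with 2 sites in the authors' deposited table were the cone photoreceptor channel gene Cnga3 (25.1 and 26.9 points), the lysosomal channel gene Tpcn2 (41.8 and -31.2 points) and the acid-sensing channel genes Asic1 (33.3 and 25.1 points) and Asic2 (30.7 and -29.4 points). Of 67 scaffolds, partners and metabotropic relatives, 10 carried a site (7.49 expected), with 6 gains and 7 losses. Their density, 0.809 sites per Mb, was below that of all protein-coding windows. The 3 with 2 sites were the synaptic scaffold genes Dlg2 (30.4 and 25.1 points) and Shank2 (31.9 and -32.6 points) and the adhesion gene Nlgn3 (-25.2 and -26.9 points).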

How the data were processed

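DNA methylation was measured by RRBS in 12 libraries. Per the submitters' processing notes, the authors used methylKit on GRCm38 (mm10); aligner, coverage minimum and test are not given in sources used here. The deposited table gives for each CpG a p-value, its q-value and a signed difference in percentage points, and its 2 parts by direction add up to it. No value per library was used, so no test across libraries was run and all results are counts and medians. Positions matched RefSeq: all 75 called sites within promoter windows fell on the C of a CpG. Called sites were assigned to RefSeq GRCm38.p6 gene spans with 5 kb on either side. Expected counts sum, over a list, the share of all protein-coding genes with a site in the same of 10 quantiles of span length. Counting was tested on simulated sites. Members, classes, lists and the naming rule (every member with a site, the 5 longest without, the 5 densest, listed genes with 2 or more sites; a few are not reported here) were chosen with earlier results of these data known; Ntf5, Kcna3, Ryr1, Ryr3 and the neighbours Ccdc124, Art1 and Art5 were named after their values were seen. Alternatives changed the minimum difference, window, strata, members and merging. Python 3.11.15, pandas 2.3.3, NumPy 2.4.6 and SciPy 1.17.1 were used.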

Additional observations from a re-analysis of the deposited data

How the results depend on the processing

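No paired analysis was possible because the table holds no value per library, and for the same reason no library could be left out in turn. Of 54 alternative values of the main results, 43 stayed within 1.5 times the count or within the 95% binomial interval. At differences of at least 30 and 40 points, 14 and 1 of the 230 genes kept a site, against 662 and 93 of the 21887 protein-coding genes. Their windows then held 0.48 and 0.03 sites per Mb, against 0.58 and 0.08 in the windows of all protein-coding genes. Median sizes at these genes were 34.2 and 41.7 points. At 40 points the ratio to expectation was 0.71 and 0% of sites gained, resting on the site of Kcng4 alone. The ratio was 0.91 with an expectation from window length alone, and 1.27 to 1.56 in the other 12 alternatives. It fell as the strata of span length became finer, from 1.56 with 5 quantiles to 1.44 with 10, 1.38 with 20 and 1.32 with 50. The share gaining was under that of all sites in all 10 alternatives, at most 43.8%. Classes above the reference numbered 7 by sites per Mb and 6 without each class's top member. The limit of 0.001 on the q-value removed no site, because every listed q-value lies below it. Its values could not change, yet they are counted in the 54, 43, 12 and 10 above. The 50 quantiles, the window-length expectation and the sites in no other gene's span were chosen after seeing the data.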

Other observations

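Channel genes were also counted by chromosome, with no allowance for span length. On chromosome 7, 7 of 26 channel genes (26.9%) carried a site, against 5.47% of all protein-coding genes there. These were Kcnn4, Trpm4, Kcna7, Kcnc1, Chrna7, Trpc2 and Chrna10, and every site but that of Trpc2 was a loss in the authors' deposited table. On chromosome 11, with as many channel genes, Cacna1g alone carried a site (3.85% against 6.22%). On chromosomes 8 and 14, 3 of 8 channel genes each carried a site (37.5%, against 8.34% and 5.76% of all protein-coding genes there). Chromosomes 4, 10, 12 and 17, with 10, 6, 5 and 6 channel genes, had none with a site. No test of this distribution was run.

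Neighbouring sites within 100 bp went the same way at Kcng4 (43 bp) and Kcnn1 (57 and 28 bp). The pair at Kcnk18, 147 bp apart, went opposite ways.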
